A study of Mus musculus with 35 samples.

Results

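Chtop (chromatin target of Prmt1) was depleted by siRNA in mouse neuroblastoma cells, and the RNA of whole cells was compared with that of cells given a control siRNA. The comparison uses 8 of the 35 libraries of the series: the 4 total-lysate knockdown libraries (KD) and the 4 total-lysate libraries with a non-targeting siRNA pool (NTC), all chosen by their labels. All 8 came from N2a Flp-In rtTA cells, a mouse neuroblastoma line. One cell line carries a doxycycline-inducible FLAG-Chtop cDNA without exon 5 (mEx5) and the other a cDNA with exon 5 (pEx5), and no doxycycline was given to these 8 libraries. Each line gave 1 control and 1 knockdown library in each of 2 biological replicates, named BR4 and BR6. The knockdown used a single Chtop siRNA product, so effects of that siRNA on other RNAs and effects of Chtop loss cannot be told apart. Each control was pooled from 2 dishes and each knockdown from 3, the medium was changed at 24 h, cells were harvested at 72 h, and 20% of the cells were kept as the total sample.

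Chtop is an RNA-binding protein with a glycine- and arginine-rich stretch that is methylated by protein arginine methyltransferases. It works with the TREX complex, which loads the export receptor Nxf1 onto processed mRNA so that the mRNA can leave the nucleus. Export adaptors join mRNA during capping, splicing and 3' end formation, so the structure of a gene and the machinery that exports its RNA are linked. Total lysate holds nuclear and cytoplasmic RNA together and shows how much polyadenylated RNA a gene has, not where it lies.

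Counts per library summed to between 20652832 and 36102129. The first principal component held 67.2% of the variance of log2 CPM (counts scaled to the TMM-adjusted library size) and separated the 4 knockdown from the 4 control libraries. No spike-in RNA is named, so each change is relative to the typical gene, whose log2 fold change was 0.01 (median over all genes). Markers of neuronal and neuroblastoma cells were present, with sums of 3278 to 3759 RPKM (reads scaled to transcript length and library total) in controls and 2594 to 3043 after knockdown over 15 genes, although the neurofilament gene Nefl stood at 0.0100 RPKM or less in every library. Sums of markers of blood, endothelium, glia and epithelium were at most 11 RPKM in any library. The fibroblast sum of 252 to 328 RPKM in controls and 129 to 205 after knockdown came nearly all from Fbln1, and 7 of its 9 genes were under 1 RPKM in all 8 libraries. In bulk RNA, fewer cells of a type and less RNA per cell cannot be told apart.

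Chtop itself lies on chromosome 3 from 90498956 to 90509498 on the minus strand (mm10) and was low in every knockdown library. Values by library are given throughout in the order mEx5 BR4, mEx5 BR6, pEx5 BR4 and pEx5 BR6. CPM of single genes are counts scaled to the library total, without TMM factors. Chtop counts were 139, 139, 135 and 125 CPM under control siRNA and 32.2, 34.7, 22 and 19.8 CPM after knockdown. The groups lay far apart, and the pEx5 knockdown libraries were the lowest. Chtop fell 5.10-fold, with a log2 change of -2.35 (SE 0.12, edgeR adjusted p = 1.4e-06), by nearly the same amount in BR4 (-2.36) and BR6 (-2.34).

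The change across the transcriptome was wide and mostly small. Of 9233 genes tested, 2980 (32.3%) were called higher and 2983 (32.3%) lower at an edgeR adjusted p below 0.05, with line and replicate number in the model. The median size among called genes was a log2 change of 0.32, or 1.25-fold. At least 2-fold changes were rare, with 86 genes higher (0.931% of those tested) and 125 lower (1.35%), Chtop among them. All 5963 called genes changed in 1 direction in both lines and 5958 of them in both replicates. The calls rest on these same libraries, so the selection favours this agreement, which is not independent replication. In 3471 of the called genes (58.2%) the control and knockdown libraries did not overlap in CPM. Over all genes tested, every knockdown library lay above every control library for 1904 (20.6%) and below for 1635 (17.7%). Counts of called or non-overlapping genes in the lists below are to be read beside these shares of all genes.

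**Figure D1:**
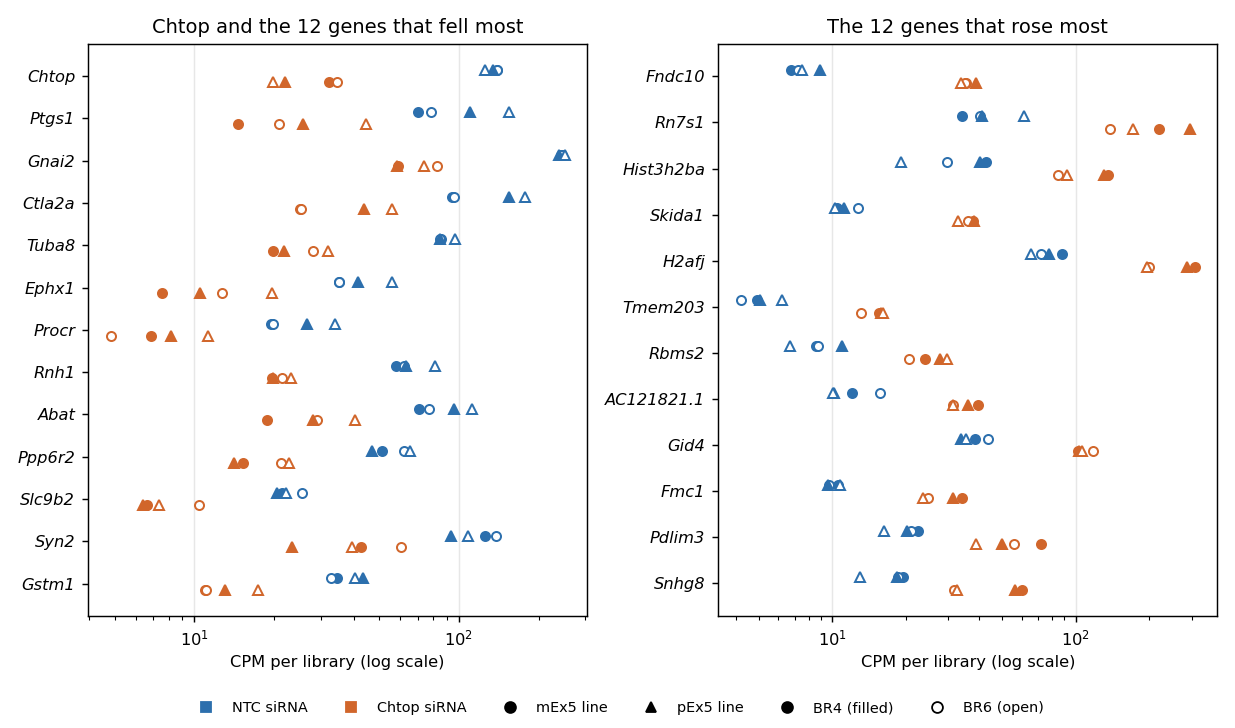
CPM per library on a log axis for Chtop and the 12 genes with the largest falls (left) and the 12 with the largest rises (right) among non-overlapping genes of at least 10 CPM on average. Predicted genes (named Gm and a number, or ending in Rik) were passed over. Blue points are control and orange points knockdown libraries, with circles for mEx5, triangles for pEx5, filled for BR4 and open for BR6; orange and blue do not overlap for any of the 25 genes.

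Among the genes that fell most after Chtop were several with enzymatic or signalling roles. Ptgs1, cyclooxygenase 1, which makes prostaglandin precursors (chromosome 2, 36230426 to 36252272, plus strand), read 70.3, 78.4, 110 and 155 CPM in controls and 14.6, 20.8, 25.7 and 44.5 CPM after knockdown. It was higher in pEx5 than in mEx5 cells under both siRNAs, yet all 4 knockdown libraries lay below all controls, 4.05-fold less on average (log2 -2.02, SE 0.083, edgeR adjusted p = 1.9e-09). Gnai2, an inhibitory G protein alpha subunit that lowers adenylyl cyclase activity (chromosome 9, 107614125 to 107635367, minus strand), read 245, 244, 238 and 251 CPM in controls and 58.9, 82.4, 58.5 and 73.6 CPM after knockdown. The controls were almost equal, and the BR4 knockdowns were a little lower than those of BR6. Gnai2 fell 3.64-fold, or by 1.87 on the log2 scale (SE 0.065, edgeR adjusted p = 1.3e-10). Tuba8, an alpha tubulin, went from 85.3, 84.8, 84.9 and 96.6 CPM to 19.9, 28, 21.8 and 32 CPM, without overlap (log2 -1.82, SE 0.076). Rnh1, the ribonuclease inhibitor, went from 58.0, 62.1, 63.1 and 81.2 CPM to 19.7, 21.5, 19.8 and 23.1 CPM (log2 -1.67, SE 0.065). The knockdown libraries of Rnh1 were close together and far below the controls.

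Detoxifying and neurotransmitter enzymes were in the same group. Ephx1, microsomal epoxide hydrolase, fell by 1.78 on the log2 scale (SE 0.12), and the glutathione transferase Gstm1 by 1.54 (SE 0.079), although 34.3% of the sequence of Gstm1 is shared with other genes. Abat, which degrades GABA, went from 70.8, 77.0, 96.0 and 112 CPM to 18.8, 29, 28 and 40.4 CPM (log2 -1.64, SE 0.068). The highest knockdown library of Abat lay well below the lowest control. Syn2, a synaptic vesicle phosphoprotein, went from 125, 138, 93.4 and 108 CPM to 42.8, 60.6, 23.3 and 39.4 CPM (log2 -1.55, SE 0.11). It was higher in mEx5 than in pEx5 cells under both siRNAs. Procr, the endothelial protein C receptor, fell by 1.72, Ppp6r2, a regulatory subunit of protein phosphatase 6, fell by 1.64, and Slc9b2, a sodium and proton exchanger, fell by 1.56 on the log2 scale. Ctla2a fell by 1.84 and shares 40.2% of its sequence with other genes, Ctla2b among them, so that reads of these copies could be exchanged.

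Carriers of several membranes also fell by more than 2-fold. Of 123 tested genes of the solute carrier (Slc) families, 58 were lower (47.2%) and 26 higher (21.1%). Of all tested genes, 32.3% were called in each direction. Slc25a30, a mitochondrial carrier, read 34.2, 39.5, 29.3 and 34.5 CPM in controls and 12.5, 15.3, 10.1 and 11.4 CPM after knockdown (log2 -1.50, SE 0.064, edgeR adjusted p = 1.7e-10). Slc25a20, the carnitine and acylcarnitine carrier that feeds mitochondrial fatty acid oxidation, fell by 1.33 and Slc35a1, the CMP-sialic acid carrier of the Golgi, fell by 1.24 on the log2 scale. For none of these carriers did control and knockdown libraries overlap.

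Among non-overlapping genes of at least 10 CPM, predicted genes (named Gm and a number, or ending in Rik) were passed over. Of the 12 others that rose most, 5 have 1 exon, beside 304 of all 9233 genes tested. Fndc10, a gene of 1 exon that codes for a membrane protein with a fibronectin type III domain (chromosome 4, 155694342 to 155696481, plus strand), read 6.79, 7.23, 8.94 and 7.51 CPM in controls and 35.4, 35.2, 38.8 and 33.8 CPM after knockdown. The 4 knockdown libraries were close to each other and far above every control, 4.66-fold more on average (log2 2.22, SE 0.076, edgeR adjusted p = 5.1e-11). Skida1 went from 10.5, 12.7, 11.2 and 10.3 CPM to 37.8, 36.1, 38.2 and 32.8 CPM (log2 1.68, SE 0.078). Gid4, which picks substrates for the CTLH ubiquitin ligase (chromosome 11, 60417145 to 60450927, plus strand), read 38.5, 43.6, 33.8 and 35.3 CPM in controls and 102, 118, 103 and 106 CPM after knockdown (log2 1.49, SE 0.054). Skida1 and Gid4 showed no overlap and little spread among the knockdown libraries. Over the 11 CTLH ligase genes as a list, 3 rose (27.3%) and 4 fell (36.4%), beside 32.3% of all tested genes in each direction. The called members other than Gid4 lay between -0.37 (Ypel5) and 0.33 (Gid8) on the log2 scale.

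Other genes of this group were Rbms2, an RNA-binding protein (log2 1.52, SE 0.12), Pdlim3, a PDZ and LIM domain protein (1.40, SE 0.072), Fmc1, an assembly factor of mitochondrial ATP synthase (1.45, SE 0.097), and Tmem203 (1.55, SE 0.10). The transcript AC121821.1 had a log2 change of 1.51 (SE 0.12). Snhg8, a host gene of a small nucleolar RNA, went from 19.6, 18.6, 18.4 and 13 CPM to 60.4, 31.6, 56.6 and 32.4 CPM (log2 1.32, SE 0.15). Its rise was larger in BR4 than in BR6, as was that of the RNA of the signal recognition particle, Rn7s1. Rn7s1 read 34.2, 40.3, 41.4 and 61.1 CPM in controls and 220, 138, 296 and 173 CPM after knockdown (log2 2.17, SE 0.30, edgeR adjusted p = 0.0031). All of its sequence (100%) is shared with other genes. Within either line alone its call was lost, with edgeR adjusted p = 0.067 in mEx5 and 0.22 in pEx5.

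Some of the most abundant transcripts also changed by at least 1.5-fold. Vim, the intermediate filament vimentin, read 3020, 2973, 4225 and 4303 CPM in controls and 1492, 1663, 2051 and 2352 CPM after knockdown (log2 -0.96, SE 0.051, edgeR adjusted p = 1.0e-09). The pEx5 line had more Vim under both siRNAs, and the groups did not overlap. Hsp90aa1, an inducible form of the chaperone Hsp90, went from 2029, 1952, 1900 and 2067 CPM to 951, 1086, 953 and 964 CPM (log2 -1.02, SE 0.053), with 62.9% of its sequence shared. Vgf, a neurotrophin-induced secretory protein, fell by 0.89 on the log2 scale and Aldoa, the glycolytic aldolase, by 0.71. Another entry of Aldoa in these counts had a log2 change of -0.68. Eef1g, a translation elongation factor subunit, fell by 0.87 and Actg1, cytoplasmic gamma actin, by 0.59 on the log2 scale. Actg1 shares 57.1% and Eef1g 68.0% of its sequence with other genes. Among abundant rising transcripts, Sirt5, a mitochondrial deacylase, read 371, 380, 399 and 403 CPM in controls and 915, 757, 883 and 862 CPM after knockdown (log2 1.12, SE 0.059). Its knockdown libraries all lay above its controls, although 41.0% of its sequence is shared. Wdr31 rose by 1.02, mt-Nd5 by 0.79 and Noct, a circadian nuclease, by 0.64, with 42.7% of the sequence of Noct shared.

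Most sterol synthesis genes analysed here fell. Cells make cholesterol from acetyl-CoA through the mevalonate arm to squalene and then through the sterol ring, and the transcription factor SREBP2 activates these genes when membrane sterol is low. Of the mevalonate arm, 9 genes were analysed here and all 9 were lower, with a median log2 change of -0.65 beside 0.01 over all genes tested, and none of the 9 overlapped between groups. Of the 10 genes after squalene analysed here, 9 were lower and 0 higher, with a median of -0.47. Not every enzyme of the pathway is in these counts. The list was chosen with a fall of sterol genes in these data already known. The promoters of Pmvk, Tm7sf2 and Hmgcs1 are printed because Pmvk and Tm7sf2 fell most in their arms and Hmgcs1 holds the only match to the sterol regulatory element searched; they run from 250 bases before to 50 after the RefSeq start (GRCm38.p6), in capitals where a motif was found on either strand.
Pmvk, chr3:89454291-89454590, plus strand: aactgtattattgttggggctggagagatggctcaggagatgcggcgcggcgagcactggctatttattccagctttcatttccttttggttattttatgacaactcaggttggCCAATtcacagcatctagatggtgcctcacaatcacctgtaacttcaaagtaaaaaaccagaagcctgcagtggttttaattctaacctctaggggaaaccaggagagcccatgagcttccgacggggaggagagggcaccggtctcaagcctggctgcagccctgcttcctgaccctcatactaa
Tm7sf2, chr19:6067801-6068100, minus strand: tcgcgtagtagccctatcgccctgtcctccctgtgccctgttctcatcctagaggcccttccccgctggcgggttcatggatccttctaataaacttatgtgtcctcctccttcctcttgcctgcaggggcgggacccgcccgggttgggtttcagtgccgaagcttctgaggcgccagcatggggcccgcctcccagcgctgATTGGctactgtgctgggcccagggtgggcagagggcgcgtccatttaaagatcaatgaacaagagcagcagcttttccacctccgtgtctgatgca
Hmgcs1, chr13:119690101-119690400, plus strand: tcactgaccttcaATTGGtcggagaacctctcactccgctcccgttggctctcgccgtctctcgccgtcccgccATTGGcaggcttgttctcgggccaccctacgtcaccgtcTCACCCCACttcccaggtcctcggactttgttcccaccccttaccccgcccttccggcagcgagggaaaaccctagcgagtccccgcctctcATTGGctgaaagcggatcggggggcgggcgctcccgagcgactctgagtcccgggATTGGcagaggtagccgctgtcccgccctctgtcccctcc
The capitals in Pmvk and Tm7sf2 mark the CCAAT box, to which NF-Y binds, and those in Hmgcs1 mark 4 CCAAT boxes and the sequence TCACCCCAC. RefSeq promoters were matched for 16 of the 19 enzymes. The letters CCAAT on either strand were present in 15 of them (93.8%), against 41.1% of all 27025 promoters and 44.2% of the 7256 promoters matched to tested genes. The letters TCACNCCAC were present in 1 of 16, against 1.44% of all promoters, 1.07% of those of genes called higher and 2.12% of those of genes called lower. This difference between directions was not tested. CCAAT was in 45.1% of promoters of genes called higher and 44.9% of those called lower, so that these 2 shares lay close together.

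The enzymes of the mevalonate arm kept their pattern in each library. Mvd, mevalonate diphosphate decarboxylase, read 142, 164, 131 and 154 CPM in controls and 76.2, 93.8, 70.3 and 85.8 CPM after knockdown (log2 -0.88, SE 0.043, edgeR adjusted p = 5.4e-10). It was higher in BR6 than in BR4 under both siRNAs and in both lines, and every knockdown library was below every control. Pmvk, phosphomevalonate kinase, read 75.7, 87.0, 56.1 and 80.7 CPM in controls and 32.3, 39.7, 23 and 28.4 CPM after knockdown (log2 -1.31, SE 0.066, edgeR adjusted p = 7.1e-10), the largest fall of the 9. Hmgcs1, which makes HMG-CoA, went from 161, 171, 140 and 181 CPM to 103, 115, 93.4 and 101 CPM (log2 -0.68, SE 0.054). Fdft1, Fdps, Idi1, Acat2, Mvk and Ggps1 had log2 changes of -0.71, -0.65, -0.60, -0.57, -0.56 and -0.45.

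After squalene, Tm7sf2, a sterol C14 reductase, read 25.1, 33.8, 24.3 and 31 CPM in controls and 12.3, 15.1, 11.1 and 13.1 CPM after knockdown (log2 -1.16, SE 0.066, edgeR adjusted p = 2.0e-09). Dhcr7, which completes cholesterol, went from 87.5, 105, 89.1 and 107 CPM to 44.4, 55.0, 43.7 and 52.1 CPM (log2 -1.01, SE 0.046). Both genes were clearly separated between groups. Msmo1 (-0.80), Lss (-0.72), Cyp51 (-0.51) and Nsdhl (-0.43) fell by less, and Sqle, squalene epoxidase, fell by 0.23. Sc5d was not called, at a log2 change of -0.11.

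**Figure D2:**
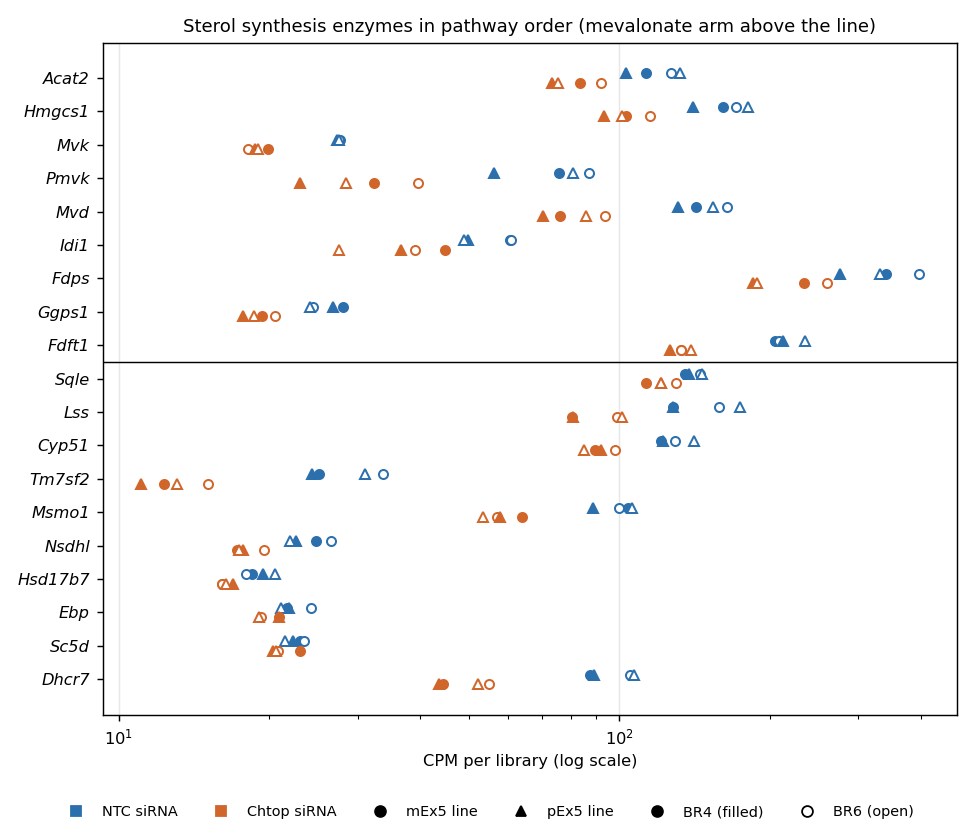
CPM per library on a log axis for the 19 sterol synthesis enzymes analysed here in pathway order, with the 9 genes of the mevalonate arm above the line; colours and symbols mark siRNA, line and replicate. Orange knockdown points lie left of all blue control points for all 9 genes of the mevalonate arm and 9 of the 10 below it, and Sc5d overlaps.

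Genes of sterol uptake and control fell as well. Stard4, a sterol carrier, read 70.3, 75.6, 71.3 and 88.2 CPM in controls and 45.6, 52.7, 52.9 and 57.9 CPM after knockdown (log2 -0.56, SE 0.051). Insig1, which holds SREBP in the endoplasmic reticulum, fell by 0.42 on the log2 scale. Neither gene overlapped between groups. Srebf2, which codes for SREBP2, fell by 0.28 and Srebf1 by 0.18, both with overlapping groups. Of 13 tested genes of SREBP regulation and lipoprotein uptake, 9 were lower and 0 higher, but without the replicate number in the model 3 were lower.

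Fatty acid synthesis genes were lower for 12 of 16 members and higher for 2, with a median of -0.35. Fads3, of the fatty acid desaturase family, read 70.4, 77.5, 86.5 and 88.6 CPM in controls and 31.4, 46.4, 46.3 and 62.1 CPM after knockdown (log2 -0.83, SE 0.076). Acsl1 and Acss2, which activate fatty acids and acetate, fell by 0.71 and 0.70 on the log2 scale. The groups were apart for all of these 3 genes. The central enzymes changed little: Fasn fell by 0.14, Acaca rose by 0.17, and Fads2 (0.04) and Elovl6 (0.02) were not called.

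Lysosomal genes were lower for 21 of 25 members and higher for 1, with a median of -0.40. The protease Ctsl, cathepsin L, read 93.5, 99.5, 92.1 and 112 CPM in controls and 35.4, 43.4, 30.4 and 39.8 CPM after knockdown (log2 -1.43, SE 0.062, edgeR adjusted p = 1.9e-10). Cstb, an inhibitor of cathepsins, went from 61.7, 53.7, 66.8 and 56.2 CPM to 28.3, 21.9, 26.9 and 25.3 CPM (log2 -1.24, SE 0.057). In both genes the knockdown libraries lay far below the controls. Asah1, acid ceramidase, fell by 0.90, Ctsb by 0.80, Ctsd by 0.79 and Grn, progranulin, by 0.62 on the log2 scale. Lamp1, the main lysosomal membrane protein, was not called, at -0.00.

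**Figure D3:**
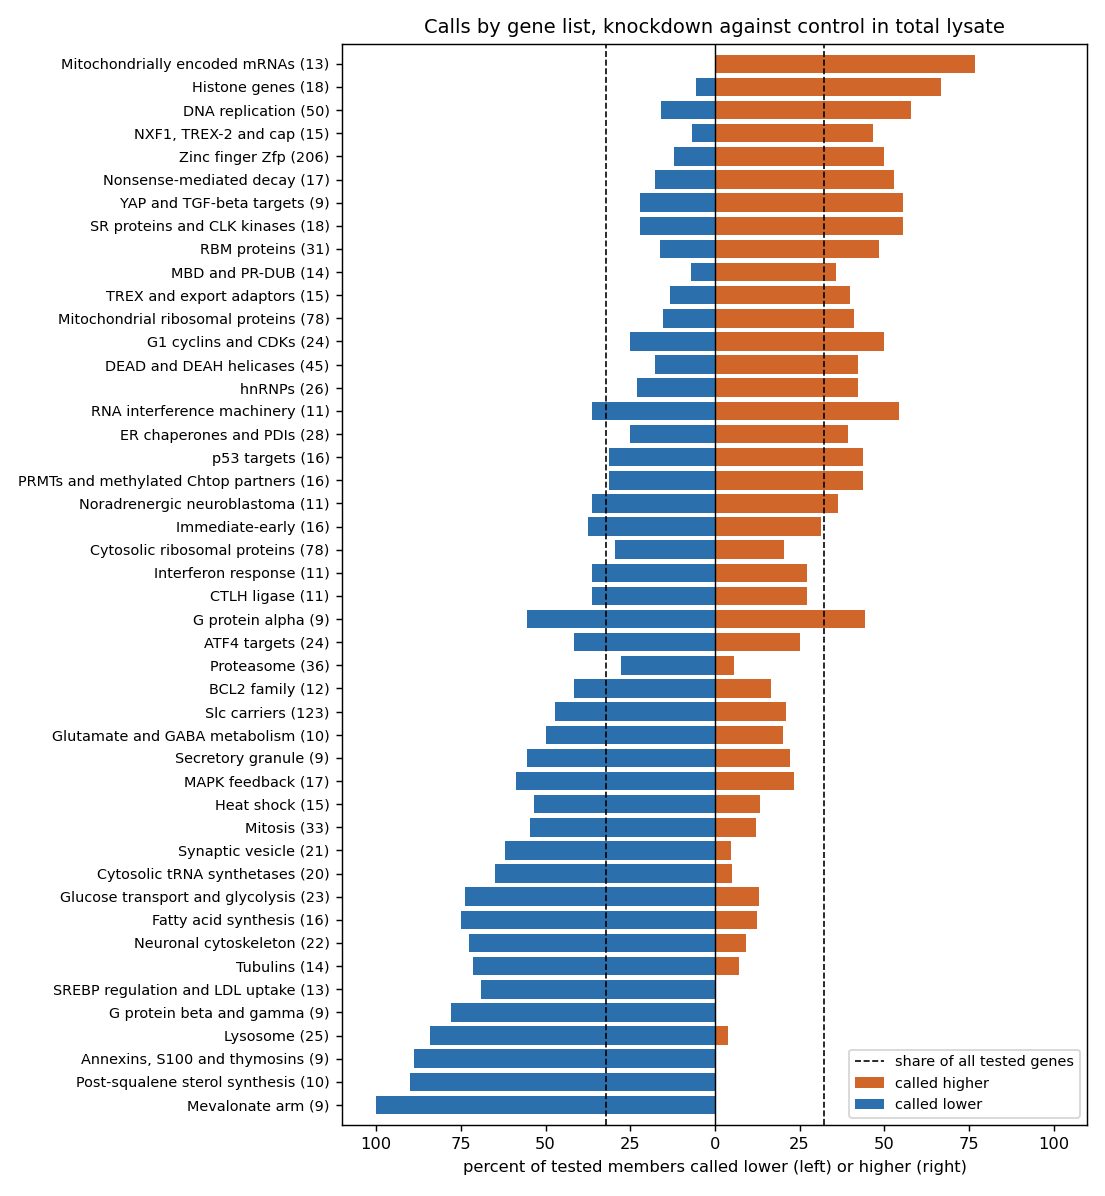
Percent of tested members called lower (bars to the left) and higher (bars to the right) for gene lists with at least 9 tested members, with the number tested in brackets; dashed lines mark the 32.3% of all tested genes called in each direction. The mevalonate arm reaches 100% lower, lysosomal genes 84.0% and neuronal cytoskeleton genes 72.7%, while 76.9% of mitochondrially encoded mRNAs and 66.7% of histone genes were higher.

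Genes of the neuronal cytoskeleton were lower for 16 of 22 members and higher for 2, with a median of -0.36. Dpysl3, which steers growth cones through the cytoskeleton, read 652, 757, 623 and 687 CPM in controls and 201, 327, 203 and 257 CPM after knockdown (log2 -1.50, SE 0.070, edgeR adjusted p = 1.2e-09). The BR6 knockdowns were less low than those of BR4, and all were far below the controls. Microtubule proteins fell by less, with Stmn4 at -0.71, Stmn2 at -0.47, Map1b at -0.46 and Mapt, tau, at -0.32. Prph, peripherin, fell by 0.42 on the log2 scale. Ina, another neuronal intermediate filament, rose from 178, 167, 185 and 153 CPM to 269, 311, 287 and 276 CPM (log2 0.73, SE 0.058). Its groups did not overlap.

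Synaptic vesicle genes were lower for 13 of 21 members and higher for 1, with a median of -0.43. Napb, a factor that recycles SNARE proteins, went from 38.6, 41.6, 46.8 and 48.3 CPM to 16.3, 19.3, 18.3 and 22.3 CPM (log2 -1.22, SE 0.059). Cplx2, complexin 2, fell by 0.98, Sncg and Sncb, gamma- and beta-synuclein, by 0.82 and 0.80, and Snap25 by 0.59 on the log2 scale. Every knockdown library of Napb lay below every control. Vamp2 (0.01), Syp (-0.08) and Stx1a (0.10) were not called. Of 9 secretory granule genes 5 were lower and 2 higher. Chgb, chromogranin B, read 640, 545, 526 and 665 CPM in controls and 298, 368, 212 and 284 CPM after knockdown (log2 -1.07, SE 0.14). Chgb was apart between groups, whereas Chga, chromogranin A, rose slightly (0.16) with overlap.

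Genes that mark noradrenergic neuroblastoma did not move 1 way, with 4 of 11 higher and 4 lower. Each of these is 36.4%, near the 32.3% of all tested genes. Slc18a2, the vesicular monoamine transporter, read 114, 126, 117 and 145 CPM in controls and 43.9, 54.0, 41.5 and 58.5 CPM after knockdown (log2 -1.36, SE 0.056, edgeR adjusted p = 1.3e-10). Ret, a receptor tyrosine kinase of these cells, fell by 0.75 on the log2 scale, with overlapping groups. Insm1 rose by 0.54, and the lineage factors Phox2a (0.12) and Hand2 (0.07) were not called.

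G protein signalling genes changed widely but in both directions among alpha subunits, where 4 of 9 were higher and 5 lower. Besides Gnai2, Gnai3 fell by 0.57 and Gnas, the stimulatory subunit, by 0.44, while Gnaq and Gna11 rose by 0.28 and 0.18 on the log2 scale. Of the beta and gamma subunits 7 of 9 were lower and 0 higher, Gnb1 by 0.38. Of 6 RGS genes, which shorten G protein signals, 5 were lower and 0 higher. Feedback genes of the MAP kinase cascade were lower for 10 of 17 members and higher for 4. Dusp4, a phosphatase of these kinases, read 347, 423, 442 and 681 CPM in controls and 100, 181, 178 and 329 CPM after knockdown (log2 -1.36, SE 0.11). Ier3 fell by 1.20 and Etv4 by 0.78, while the phosphatase Dusp2 rose by 0.85 and the feedback inhibitor Spry2 by 0.71 on the log2 scale. For all of these 5 genes the groups were apart. Immediate-early genes gave 5 higher (31.2%) and 6 lower (37.5%) of 16, near the 32.3% of all tested genes in each direction. Without the replicate number in the model 3 were higher and 3 lower. Klf4 changed by 0.82 and Maff by -0.85, and the median of 0.04 was near that of all genes.

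Glucose transport and glycolysis genes were lower for 17 of 23 entries and higher for 3. The entries of Aldoa, at log2 changes of -0.71 and -0.68, are counted separately. Slc2a3, a neuronal glucose transporter, read 245, 324, 236 and 288 CPM in controls and 88.4, 163, 76.1 and 156 CPM after knockdown (log2 -1.25, SE 0.12, edgeR adjusted p = 5.8e-05). The BR4 knockdowns were the lowest libraries, and the fall was larger in BR4 (-1.55) than in BR6 (-0.97). Aldoc, a brain aldolase, fell by 1.21 and Eno2, neuronal enolase, by 1.06 on the log2 scale. Eno3, the muscle enolase, rose from 17.7, 17.5, 17.4 and 17.2 CPM to 27.5, 29.9, 27 and 28.1 CPM (log2 0.67, SE 0.059), with very little spread in either group. Pkm (-0.22), Gapdh (-0.31) and Ldha (-0.31) fell by less, and Hk2 (-0.02) was not called. In pEx5 libraries alone the calls of Slc2a3 and Eno2 were lost, with edgeR adjusted p = 0.15 and 0.24.

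Tubulins were lower for 10 of 14 members and higher for 1. After Tuba8, the largest falls were those of Tubb2a (-0.78), Tubb2b (-0.66) and Tuba1a (-0.46), genes with 56.4%, 45.9% and 78.6% of their sequence shared. Annexins, S100 proteins and thymosins were lower in 8 of 9 cases, but only 2 of the 9 were lower without overlap between groups. Of all tested genes, 32.3% were called lower and 17.7% were lower without overlap. S100a10, the partner of annexin A2 at the membrane, read 100, 104, 114 and 108 CPM in controls and 38.1, 40.8, 43.7 and 49.3 CPM after knockdown (log2 -1.33, SE 0.052, edgeR adjusted p = 9.0e-11). Anxa2 itself fell by 0.85, with overlap between groups, and its call was lost in pEx5 libraries alone (edgeR adjusted p = 0.12). Heat shock genes were lower for 8 of 15 members and higher for 2, with the constitutive chaperone Hspa8 at -0.51 and the small heat shock protein Hspb8 at -0.74, while Hsph1 rose by 0.19.

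Cell cycle genes changed in both directions. DNA replication genes were higher for 29 of 50 members and lower for 8, with a median of 0.17, and G1 cyclins, CDKs and E2F factors were higher in 12 of 24 and lower in 6. In mEx5 libraries alone 6 of these 24 were higher and 3 lower, and when changes were tested against a 1.2-fold limit 5 and 1. Mitosis genes were lower for 18 of 33 members and higher for 4, with a median of -0.17. The replication factors Cdc6 and Gins3 are shown by their promoters, which hold a match to the E2F sequence TTTNNCGC, in capitals on either strand (RefSeq starts, GRCm38.p6).
Cdc6, chr11:98907901-98908200, plus strand: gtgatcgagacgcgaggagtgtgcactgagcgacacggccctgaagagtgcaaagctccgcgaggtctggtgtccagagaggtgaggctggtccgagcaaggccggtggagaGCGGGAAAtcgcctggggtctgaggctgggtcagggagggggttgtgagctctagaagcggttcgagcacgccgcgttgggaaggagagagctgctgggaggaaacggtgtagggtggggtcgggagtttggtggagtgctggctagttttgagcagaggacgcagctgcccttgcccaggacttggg
Gins3, chr8:95633309-95633608, plus strand: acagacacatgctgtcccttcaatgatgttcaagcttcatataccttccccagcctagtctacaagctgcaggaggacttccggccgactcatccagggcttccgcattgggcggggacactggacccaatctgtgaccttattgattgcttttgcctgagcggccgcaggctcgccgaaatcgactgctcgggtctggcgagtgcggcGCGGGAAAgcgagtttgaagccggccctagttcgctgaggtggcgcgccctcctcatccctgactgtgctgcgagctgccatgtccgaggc
These letters were present in 18 of the 41 replication promoters matched (43.9%), against 5.93% of all promoters and 11% of those of tested genes. Among promoters of genes called higher the share was 13%, and among those called lower 8.62%. Of replication genes called higher, 12 of 27 matched promoters (44.4%) held it, which is close to the share of the whole list.

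Cdc6, which loads the replicative helicase, read 24.6, 20.7, 26.3 and 18.4 CPM in controls and 34.0, 34.8, 36.2 and 31.5 CPM after knockdown (log2 0.60, SE 0.071, edgeR adjusted p = 3.5e-06). The BR6 controls were the lowest libraries, and all knockdowns lay above all controls. Gins3, a subunit of that helicase, went from 10.4, 10.8, 9.24 and 7.69 CPM to 14.4, 13.6, 12.5 and 12.6 CPM (log2 0.47, SE 0.084). Rpa2, which coats single-stranded DNA, rose by 0.55, Cdc45 by 0.44 and Mcm5 by 0.43 on the log2 scale. Prim1, the primase subunit, fell by 0.46, and Pcna (0.03) was not called. Without the replicate number in the model 17 replication genes were higher, and in mEx5 libraries alone 15.

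The E2F factors themselves were among the G1 genes that rose. E2f7, a repressor of the E2F family (chromosome 10, 110745439 to 110787384, plus strand), read 21, 21.5, 19 and 17 CPM in controls and 34.7, 38.2, 40.3 and 37.9 CPM after knockdown (log2 0.93, SE 0.075, edgeR adjusted p = 6.3e-08). E2f2 rose by 0.65 and the activator E2f1 by 0.55 on the log2 scale. All of these 3 were free of overlap. The D-type cyclin Ccnd3 rose by 0.54 and Cdkn1b, the inhibitor p27, fell by 0.45, while Ccne1 (0.03) was not called. Among mitotic genes, Cenpf, a kinetochore protein, fell by 0.53, Cdc25c, a mitotic phosphatase, by 0.46, Aurka by 0.26 and Plk1 by 0.24 on the log2 scale, and Cdc20 rose by 0.18. In pEx5 libraries alone 9 of the 33 mitosis genes were lower. Targets of p53 gave 7 higher (43.8%) and 5 lower (31.2%) of 16, beside 32.3% of all tested genes in each direction. Gadd45a and Rrm2b fell by 0.83 and 0.80, Cdkn1a rose by 0.19, and Mdm2 (-0.08) was not called.

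Partners of Chtop in mRNA export changed little at the RNA level. Of 15 TREX and export adaptor genes other than Chtop, 6 were higher and 2 lower, with a median of 0.08. Alyref, the adaptor that hands mRNA to Nxf1, read 107, 87.5, 101 and 88.9 CPM in controls and 153, 125, 135 and 97.6 CPM after knockdown (log2 0.38, SE 0.061, edgeR adjusted p = 7.7e-05), and the groups overlapped in pEx5 BR6. Its 1-exon copy Alyref2 rose from 6.03, 4.80, 5.16 and 4.88 CPM to 13.5, 12.4, 13.1 and 11.3 CPM (log2 1.26, SE 0.090), with 53.7% of its sequence shared. Thoc1, of the THO core, rose by 0.42 and the helicase Ddx39 by 0.36, while the helicase Ddx39b (-0.01) and Thoc5 (-0.08) were not called. Zc3h11a, another export factor, fell by 0.80 on the log2 scale, but 99.1% of its sequence is shared and in mEx5 libraries alone its call was lost (edgeR adjusted p = 0.059). Of 15 genes for Nxf1, its partners, TREX-2 and the cap complex, 7 were higher and 1 lower, but the number higher was 4 without the replicate number in the model, 2 in mEx5 libraries alone and 0 with the 1.2-fold limit. Nxt1, the small partner of Nxf1, rose by 0.33 and Nxf1 fell by 0.14 on the log2 scale.

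Arginine methyltransferases and partners methylated with Chtop gave 7 higher (43.8%) and 5 lower (31.2%) of 16. Of all tested genes, 32.3% were called in each direction. Prmt1, the main enzyme for Chtop, was not called (0.05). Prmt7 fell from 170, 195, 149 and 181 CPM to 111, 134, 102 and 133 CPM (log2 -0.55, SE 0.046), without overlap. Prmt5 rose by 0.28 and its cofactor Wdr77 by 0.43, and Prmt9 fell by 0.48 on the log2 scale.

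Splicing and RNA turnover genes changed mildly in most cases. SR proteins and CLK kinases were higher for 10 of 18 members and lower for 4. The SR proteins Srsf6, Srsf3, Srsf1 and Srsf2 rose by 0.41, 0.39, 0.38 and 0.36 on the log2 scale. Clk3, a kinase of SR proteins, fell from 119, 127, 106 and 125 CPM to 69.3, 76.2, 58.7 and 81.9 CPM (log2 -0.76, SE 0.058), without overlap, and Clk1 fell by 0.35. Genes for hnRNP proteins were higher for 11 of 26 members and lower for 6, and without the replicate number in the model for 7 and 3. Syncrip rose by 0.47, and Ptbp2, the neuronal polypyrimidine tract-binding protein, fell by 0.54. Nonsense-mediated decay genes were higher for 9 of 17 members and lower for 3, led by the exon junction proteins Magohb (0.79) and Magoh (0.54). RNA interference genes were higher for 6 of 11 members and lower for 4, with Dgcr8, which processes microRNA precursors, at 0.71 and Tnrc6b and Tnrc6c, partners of Argonaute, at 0.50 and 0.56. The groups were apart for each of Syncrip, Ptbp2, Magoh, Magohb, Dgcr8, Tnrc6b and Tnrc6c.

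Zinc finger genes named Zfp, most of which code for DNA-binding proteins, were higher for 103 of 206 members and lower for 25, with a median of 0.17. Zfp961 went from 8.24, 8.63, 7.94 and 6.05 CPM to 15.5, 16.6, 16.2 and 14.9 CPM (log2 1.03, SE 0.092), and Zfp367 rose by 0.99. In mEx5 libraries alone 67 of the 206 were higher. In Zfp961 every knockdown library was well above every control. Mbd6, a methyl-CpG-binding domain protein, rose by 0.71, and the RNA helicase Ddx17 by 0.63 on the log2 scale.

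Calls among translation genes went in both directions. Of 78 cytosolic ribosomal protein genes 16 were higher (20.5%) and 23 lower (29.5%), both shares below the 32.3% of all tested genes called in each direction. Without the replicate number in the model 4 were higher and 11 lower. Their median was -0.00, with 0.07 in BR4 and -0.09 in BR6. These counts rest on single libraries: the number higher was 8 without the mEx5 BR4 control, 10 without the mEx5 BR4 knockdown, 9 without the pEx5 BR4 control and 28 without the mEx5 BR6 knockdown, and the number lower was 15 without the mEx5 BR6 or the pEx5 BR4 knockdown. Rps28 read 239, 183, 228 and 170 CPM in controls and 444, 215, 470 and 251 CPM after knockdown (log2 0.67, SE 0.14), so that the BR4 knockdowns were the highest, the pEx5 BR6 knockdown lay just above the controls and the mEx5 BR6 knockdown within them. Rpl12 fell from 229, 235, 211 and 246 CPM to 145, 164, 135 and 155 CPM (log2 -0.64, SE 0.047), evenly in both replicates. Mitochondrial ribosomal proteins were higher for 32 of 78 members and lower for 12, with Mrpl57 at 0.84 and Mrps28 at -0.79, and without the replicate number in the model 15 were higher. Cytosolic tRNA synthetases were lower for 13 of 20 members and higher for 1. Qars, which charges glutamine tRNA, read 119, 125, 103 and 118 CPM in controls and 61.2, 77.1, 61.0 and 72.5 CPM after knockdown (log2 -0.80, SE 0.049), and Sars fell by 0.48. In BR6 libraries alone 8 of the 20 were lower and in mEx5 libraries alone 6.

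Stress genes were mixed as lists, with clear single changes. Targets of ATF4, the factor of the integrated stress response, were higher for 6 of 24 members and lower for 10. Atf5 and Sesn2 rose by 0.64 and 0.63, while the amino acid carrier Slc7a3 fell by 0.74 and the mTOR inhibitor Ddit4 by 0.66 on the log2 scale. Chaperones and disulfide isomerases of the endoplasmic reticulum were higher for 11 of 28 members and lower for 7. Pdia6, a disulfide isomerase, read 276, 296, 290 and 361 CPM in controls and 122, 134, 107 and 124 CPM after knockdown (log2 -1.35, SE 0.068, edgeR adjusted p = 2.5e-09). Txndc5, of the same family, fell by 1.23, whereas Manf and the chaperone Hyou1 rose by 0.70 and 0.54 on the log2 scale. The groups were apart for all of these 4. Interferon genes gave 3 higher (27.3%) and 4 lower (36.4%) of 11. Isg15 read 4.32, 5.30, 2.60 and 3.17 CPM in controls and 6.10, 5.37, 5.76 and 5.84 CPM after knockdown (log2 0.57, SE 0.16). The call of Isg15 was lost in mEx5 libraries alone (edgeR adjusted p = 0.32) and in BR6 libraries alone (edgeR adjusted p = 0.07). Stat2 fell by 0.56.

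The direction of change followed the number of exons. In the longest basic transcript of GENCODE M21, 304 tested genes had 1 exon, and 171 of these (56.2%) were higher and 37 (12.2%) lower, with a median log2 change of 0.30. With 2 to 4 exons 47.9% were higher and 20.9% lower (median 0.14), and with 5 to 7 exons 33.4% and 28% (median 0.03). From 8 to 11 exons on, more genes were lower than higher: 26.5% higher and 37.6% lower, then 26.4% and 37.9% with 12 to 17 exons, and 25.2% and 39.2% with 18 or more (median -0.06). Both lines gave the same order for the 3 lowest classes, with a median of 0.30 for 1-exon genes in each. BR4 gave 0.39 and BR6 0.22 for 1-exon genes. Libraries with Chtop siRNA and doxycycline, outside these 8, had medians against control of 0.28 for 1 exon and 0.00 for 18 or more. For knockdown against control in nuclear RNA the medians of these classes were 0.08 and -0.00, and in cytoplasmic RNA 0.21 and 0.02. What set the order was not tested. Genes are not independent replicates, so the shares and medians describe the genes and carry no test.

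**Figure D4:**
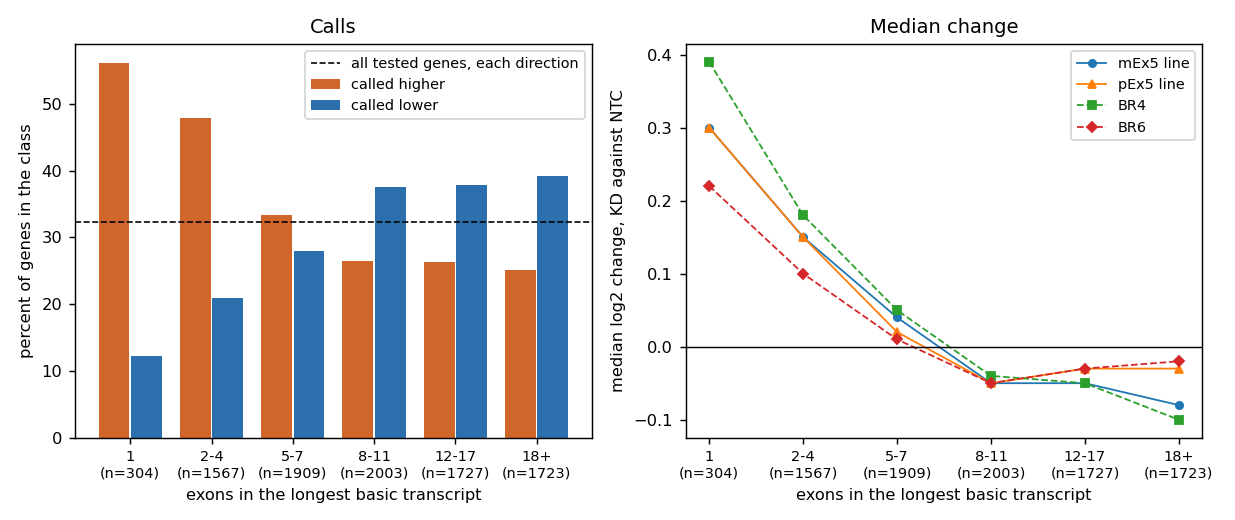
Left, percent of genes called higher (orange) and lower (blue) by exon number, with a dashed line at the 32.3% of all tested genes in each direction. Right, median log2 change by exon number in each line and each replicate; all 4 lines of points start between 0.22 and 0.39 for 1-exon genes and lie below 0 from 8 exons on.

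The order was also present when genes with shared sequence and noncoding genes were left out. Among protein-coding genes with under 1% of sequence shared, 66.7% of 72 genes with 1 exon were higher and 15.3% lower, against 25% and 39.4% of 1020 genes with 18 or more exons. A like order was present within classes of transcript length. In transcripts of up to 2236 bases the median was 0.31 for 1 exon and -0.10 for 12 to 17 exons (with 0.04 for the 21 genes of 18 or more), and in those over 3957 bases it was 0.38 for 1 exon and -0.04 for 18 or more. Genes that the authors' deposited table marks as overlapping Chtop iCLIP, a method that crosslinks a protein to its RNA targets, numbered 4484 of the 9233 and had more exons (median 13 against 6). Of the marked genes 29.5% were higher and 35.5% lower, and of the 4749 others 34.9% and 29.2%. Within the 1-exon class the median was 0.17 for marked and 0.32 for other genes, and within 18 or more exons -0.05 and -0.07.

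Classes rich in 1-exon or little-spliced genes went the same way, though not all by as much. Processed pseudogenes, with a median of 1 exon, were higher for 31 of 82 (37.8%) and lower for 12 (14.6%). Their median log2 change was 0.14. Histone genes were higher for 12 of 18 members and lower for 1. H2afx, a histone variant of the DNA damage response, read 106, 100, 123 and 96.1 CPM in controls and 229, 203, 241 and 210 CPM after knockdown (log2 1.04, SE 0.048, edgeR adjusted p = 3.5e-10), with no overlap and 11.2% of its sequence shared. H2afj went from 88.1, 71.9, 78.0 and 65.6 CPM to 309, 200, 286 and 196 CPM (log2 1.67, SE 0.066), and Hist3h2ba rose by 1.76, a call that was lost in BR6 libraries alone (edgeR adjusted p = 0.055). Hist1h2bc fell by 0.79, with overlap. Long intergenic noncoding RNAs were higher for 52 of 79 members and lower for 6, with a median of 0.44, and among the 16 of them with under 1% of sequence shared 8 were higher and 2 lower. Loci that GENCODE types as TEC, whose transcripts await further evidence, were higher for 20 of 24 members and lower for 1. Mitochondrially encoded mRNAs, which are made and kept in mitochondria and have no introns, were higher for 10 of 13 members and lower for 0, but only 1 of the 13 was free of overlap and 2 were called without the replicate number in the model. That gene, mt-Nd5, read 1421, 1254, 1657 and 1125 CPM in controls and 2892, 2038, 2614 and 2014 CPM after knockdown (log2 0.79, SE 0.063).

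The share of counts in such genes moved with the knockdown too. Genes of 1 exon outside mitochondria held 6.28% ± 0.0379 of counts in controls and 8.52% ± 0.430 after knockdown (SD, n = 4 each, exact permutation p = 0.0286, two-sided). That is the smallest p that 4 against 4 libraries can give. Noncoding lincRNA, TEC and antisense genes held 2.67% ± 0.128 and 4.64% ± 0.357 (SD, n = 4, exact permutation p = 0.0286), and genes with over 50% of sequence shared 17.1% ± 0.399 and 18.4% ± 0.556 (SD, n = 4, exact permutation p = 0.0286). Mitochondrial genes held 3.46, 3.17, 3.51 and 2.45% in controls and 4.84, 3.38, 4.61 and 3.52% after knockdown, with overlap between the groups (exact permutation p = 0.114). The knockdown was higher than the control of the same line and replicate in 4 of 4 pairs, as it was for each of the shares given before it. An exact sign-flip permutation test over these pairs, added after the data were seen, gave p = 0.125 for each of these 4 shares, the smallest that 4 pairs allow. The share of transcripts under 1000 bases outside mitochondria was tested too. It was higher after knockdown in 3 of 4 pairs (exact permutation p = 0.457, exact sign-flip permutation p = 0.375). The part of depth, RNA quality and shared sequence in these shares was not tested.

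The lines, whose cDNAs were not induced here, were compared with each other. For the difference of the knockdown between pEx5 and mEx5, edgeR called 0 of 9233 genes (0%), 446 genes had an unadjusted p below 0.05, where 462 would be expected by chance, and DESeq2 called 8. The median change of the genes called higher was 0.31 in mEx5 and 0.32 in pEx5, and of those called lower -0.33 in each. A count of 0 is no evidence that both responded alike.

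The replicates were compared in the same way. For the difference of the knockdown between BR6 and BR4, 101 genes (1.09%) were called, 72 of them with a more negative log2 change in BR6 and 29 with a more positive one. The 72 had a median transcript length of 745 bases beside 3026 for all genes tested, and 44 of them had transcripts under 1000 bases, against 7.08% of all genes. They included mRNAs of ribosomal and respiratory proteins: Rps29 changed by 0.91 in BR4 and 0.21 in BR6, Cox7c, a cytochrome oxidase subunit, by 0.81 and 0.15, and Atp5k, of ATP synthase, by 1.34 and 0.58. The nuclear noncoding RNA Neat1, which builds paraspeckles, read 34.3, 40.1, 29 and 24.2 CPM in controls and 70.1, 42.0, 60.4 and 33.1 CPM after knockdown. It was high in the BR4 knockdowns alone, with log2 changes of 1.06 in BR4 and 0.20 in BR6 (edgeR adjusted p of the difference = 0.0065). Malat1 changed by 0.39 in BR4 and -0.17 in BR6 (edgeR adjusted p of the difference = 5.6e-04).

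Short transcripts held 11.2 and 10.1% of counts in the BR4 knockdowns, 8.56 and 8.57% in those of BR6, and 8.23 to 9.63% in controls, and the part of this in the results on short genes was not tested. The 29 genes with a more positive log2 change in BR6 had a median length of 3716 bases. Some of these fell less in BR6 than in BR4: Slc2a3 fell by 1.55 in BR4 and 0.97 in BR6, Ero1l, an oxidase of the endoplasmic reticulum, by 1.30 and 0.78, and Bnip3, a mitophagy receptor, by 0.61 and 0.15. Pygl, liver glycogen phosphorylase, had log2 changes of -1.29 and -0.64. In controls Slc2a3 was higher in BR6 (324 and 288 CPM) than in BR4 (245 and 236 CPM). These genes were picked out after their values were seen.

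**Figure D5:**
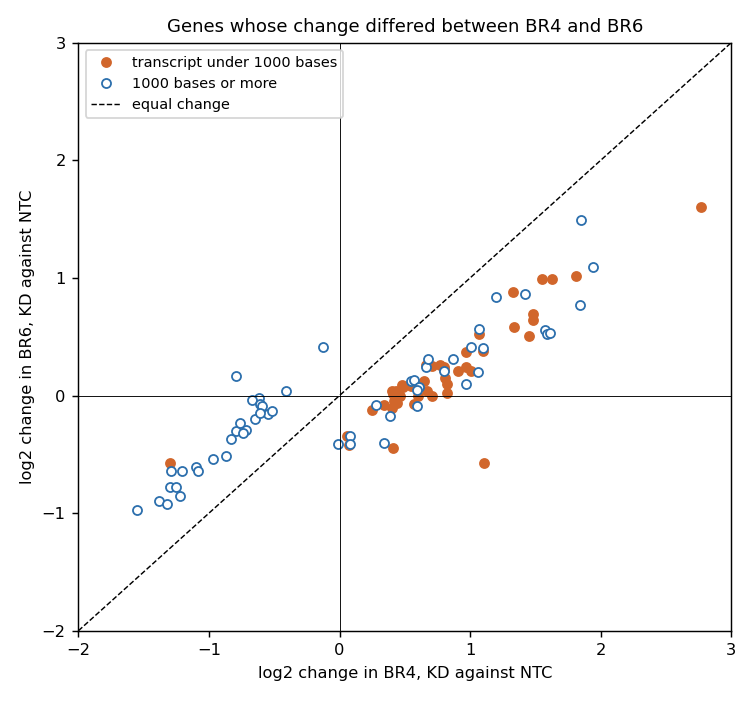
Log2 change from control to knockdown in BR4 (x axis) and BR6 (y axis) for the 101 genes whose change differed between the replicates; filled points are transcripts under 1000 bases, open points longer ones, and the dashed line is equal change. The 72 points under the dashed line (44 of them short) had the more positive change in BR4, and the 29 points above it the more negative one.

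Libraries with Chtop siRNA and doxycycline, which share these controls, are given only beside the knockdown. In them Chtop stood at a log2 value of 0.71 above control, where the knockdown gave -2.35. For the genes at least 2-fold higher in the knockdown the median against control was 1.15 in the knockdown and 1.13 with the cDNA induced, and for those at least 2-fold lower -1.19 and -0.99. Gnai2 gave -1.87 and -1.68, Ptgs1 -2.02 and -1.57, Fndc10 2.22 and 2.08, and Gid4 1.49 and 1.40. Slc2a3 (-1.25 and -0.70), Dusp6 (-0.65 and -0.26) and Cdc6 (0.60 and 0.42) lay nearer to control. The difference between rescue and knockdown is outside the comparison made here, and the doxycycline and the cDNA were not given with control siRNA.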

How the data were processed

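Poly(A) RNA was sequenced, and the submitters' processing notes name mm10 as the build, Salmon 0.14.1 and, without a version, DESeq2. The count table holds whole-number counts per gene, deposited by the authors without normalization. The RPKM table was deposited by the authors as reads scaled to length and library total and was used here for marker levels only. The deposited table of normalized signal, gene counts divided by size factors by the authors per its column names, and its iCLIP mark served as an alternative and as a description. Column names were matched to the labels, and 1 per-sample column that matched no sample was not used.

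Counts were filtered with filterByExpr (6 of 9239 genes not tested), scaled by TMM (factors 0.975 to 1.03) and fitted with robust quasi-likelihood in edgeR 4.0.16 (R 4.3.3), with terms for line, BR number and siRNA. The differences between lines and between replicates were interaction terms. P-values were adjusted by the Benjamini-Hochberg method across the genes tested and called below 0.05. Because BR number is a term of the model, the mean difference between BR4 and BR6 is not part of the error. For the siRNA effect the error had 4 residual degrees of freedom. It holds what line, BR number and siRNA leave unexplained, including any difference of the knockdown between lines or between BR numbers. CPM of single genes are counts scaled to library totals without TMM factors, and overlap between groups was judged on them. Log2 CPM of the principal components and of the residuals below used TMM-adjusted library sizes. BR numbers come from the labels, and residuals of libraries with the same number correlated at 0.532 to 0.777 over 6 pairs of groups. The median SE of a log2 change was 0.058.

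Named genes are Chtop, the 12 highest and 12 lowest called changes with at least 10 CPM on average and no overlap between groups, the 6 most abundant called genes changed at least 1.5-fold in each direction, and up to 6 called members per list, plus members given as not called. For the 12 highest and 12 lowest, predicted genes (named Gm and a number, or ending in Rik) were passed over. Their change also had the same sign in both lines. Other genes in the text were added after their values were seen. Some genes, higher as well as lower after knockdown, are not reported here and were taken out of the functional lists and their counts after the results were known. The comparison, the 56 lists and these rules were chosen with earlier results of these data known. Shared sequence is the percent of 31-base words of the longest basic transcript (GENCODE M21) found in other genes. Library shares were compared by two-sided exact permutation tests. Alternatives were DESeq2 1.42.0, other scalings and filters, no replicate block, single lines or replicates, each library left out, a 1.2-fold limit, all 12 total libraries and, added after seeing the data, limma 3.58.1 on log2 of the authors' normalized values plus a pseudocount of 1. The edgeR script was tested on simulated data. Tables and plots were made with Python 3.11.15, pandas 2.3.3 and matplotlib 3.10.9.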

Additional observations from a re-analysis of the deposited data

Results flagged for a closer look

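In 16 of 642 groups of 4 libraries (632 for the named genes by siRNA and 10 for shares of counts), 1 library lay far from the other 3. Chance alone gives about 1 in 20 such groups. Among controls the pEx5 BR6 library was the highest for Tuba8 (96.6 CPM), Rgs10 (11.8 CPM) and Scg5 (109 CPM) and the lowest for Tuba1a (2663 CPM) and Bak1 (23.2 CPM). The pEx5 BR4 control was the highest for Gnaq (37.5 CPM) and Ddx31 (24.7 CPM), the mEx5 BR4 control the highest for Skil (44.3 CPM) and the mEx5 BR6 control the lowest for Psmc2 (135 CPM). Among knockdowns the mEx5 BR6 library was the highest for Hsp90aa1 (1086 CPM), Rgs7 (22.7 CPM) and Ttk (35.0 CPM). The pEx5 BR6 knockdown was the highest for Anxa7 (59.5 CPM) and Prmt9 (16.6 CPM) and the lowest for Id4 (11.1 CPM), and the mEx5 BR4 knockdown was the highest for Bst2 (40.5 CPM).

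For 12 of the named genes the change from control to knockdown differed between the replicates, by edgeR's test of the difference over all genes. The change in BR6 minus that in BR4 (log2) was negative for Rn7s1 (-1.17), Rps29 (-0.70), Snhg8 (-0.64), Rps28 (-0.61), Rps21 (-0.56), Rpl37 (-0.40), Wdr31 (-0.36) and H2afj (-0.35). It was positive for Slc2a3 (0.57), Ero1l (0.52), Anxa2 (0.49) and Bnip3 (0.46). What set these differences was not tested.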

How the results depend on the processing

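The counts of 2980 genes higher and 2983 lower stayed within 1.5 times of these values under each alternative except a 1.2-fold limit tested with glmTreat, which called 1056 and 1232. Leaving out 1 library gave 2637 to 2890 higher and 2590 to 2883 lower, and the authors' normalized values gave 2665 and 2586. Without the replicate block 2051 and 2148 genes were called, of which 4198 of 4199 were called in the same direction with it. BR4 libraries alone gave 2773 and 2828, and BR6 alone 2403 and 2507. The mEx5 libraries alone gave 1990 and 2008, close to the 1.5 times limit, and pEx5 alone 2516 and 2513. For the difference between the lines, 8 genes were lower with DESeq2, and leaving out 1 library gave 0 to 1 higher and 0 to 3 lower. For the difference between BR6 and BR4, scaling by library totals gave 47 higher in place of 29, and leaving out 1 library gave 11 to 109 higher and 26 to 130 lower. The cause of these shifts was not tested.

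Of 316 named genes, 210 were called under each of the 21 alternatives. Gng2 and Tnrc6a changed sign, to 0.11 and 0.17, with the authors' normalized values, and the cause was not tested. Leaving out 1 library ended the call of 15: Rps27rt, Scg5, Armc8, Mbd2, Hcfc1, Irf9, Bst2, Bnip3, Bak1, Krt8, Rps29, Psma3, Psmd10, Slc1a4 and Zfp934. It also moved the number of lower proteasome genes between 3 and 15 of 36 and of lower BCL2 family genes between 3 and 6 of 12. Of 68 counts of called list members of 4 or more, 51 moved by over 1.5 times with the 1.2-fold limit, 26 in mEx5 libraries alone, 19 without the replicate block, 7 in pEx5, 6 in BR6 and 3 in BR4 libraries alone. With 4 libraries per group, changes near 1.1-fold lie close to the error.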
